A study of Mus musculus with 6 samples.

Results

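FL-Y, a mouse cell line with features of follicular dendritic cells (FDC) that SV40 had transformed, was compared gene by gene with primary FDC grown in culture. The comparison used 4 arrays. FDC had 2 arrays, and the line had 1 array unactivated and 1 after activation with an antibody to the lymphotoxin beta receptor; both states stood for the line. A gene belonged to the comparison where the FL-Y states agreed, that is, where both FL-Y arrays lay above both FDC arrays, both lay below them, or every FL-Y array lay within 1 of every FDC array on the log2 scale. This held for 14027 of the 18193 genes measured: 4182 were above on both (23% of the genes measured), 6398 were below on both (35.2%) and 3447 were within 1 and neither. For the remaining 4166 genes the states did not agree.

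The series also holds 2 arrays of bone marrow-derived dendritic cells (BMDC), antigen-presenting cells of the blood lineage, which served here as a level from a non-stromal cell. The sources used here do not give strain, age, sex, genotype, passage number or the length of the antibody treatment. FL-Y is 1 line, and no label says that the FDC arrays are of different cultures or animals. The p-values therefore measure the spread between these arrays alone. Between the FDC arrays that spread may be technical, and between the FL-Y arrays it includes the difference between the unactivated and activated states. Median signals were 82.5 and 79.6 for FDC, 61.1 for unactivated FL-Y and 47.9 for activated FL-Y. Across probe sets, log2 values had a correlation of 0.907 within FDC, 0.963 within FL-Y and 0.869 to 0.891 from FDC to FL-Y. The ratio of labelling to hybridisation control signals was 0.103 and 0.266 for FDC against 0.045 and 0.0673 for FL-Y, so array handling and cell type cannot be told apart. Of 13 measured housekeeping genes limma called 0 in either direction (at an unadjusted p under 0.05, 1 gene each way), and 9 were at a like level as defined below.

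In lymphoid follicles, FDC form the stromal network among the B cells. They hold antigen on complement and Fc receptors, secrete chemokines and survival factors for B cells, and depend on lymphotoxin and tumour necrosis factor signals from B cells. The large T antigen of SV40 binds the RB family of proteins, which frees E2F transcription factors to switch on genes of DNA synthesis, and it also binds p53, the transcription factor that halts the cell cycle after damage through targets such as Cdkn1a. Genes of mitosis share a different promoter element, the cell cycle homology region (CHR), and genes that interferons switch on carry the interferon-stimulated response element (ISRE).

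The promoters of genes from the groups that differed most are shown first, because the groups carried different elements. For each gene the 150 bases before the transcription start are given from RefSeq (GRCm38.p6), 5′ to 3′ on the strand of the gene, with the searched motif in capitals on whichever strand it lay. The E2F motif was TTTCCCGC, TTTCGCGC, TTTGCCGC or TTTGGCGC, the CHR was TTTGAA or TTCGAA, and the ISRE was searched as the tetramer GAAA repeated after a gap of 2 bases. Mcm6 encodes a subunit of the replicative helicase and Pola1 the catalytic subunit of DNA polymerase alpha. Mki67 encodes the Ki-67 protein of dividing cells. Ifit1 and Ifit3 encode antiviral proteins that bind RNA, and Igtp encodes a GTPase of the defence against intracellular parasites.
Mcm6, E2F motif (chr1:128359706-128359855, minus strand): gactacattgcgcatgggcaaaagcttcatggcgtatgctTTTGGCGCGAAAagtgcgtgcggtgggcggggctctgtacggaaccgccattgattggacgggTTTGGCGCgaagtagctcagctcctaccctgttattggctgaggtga
Pola1, E2F motif (chrX:93632156-93632305, minus strand): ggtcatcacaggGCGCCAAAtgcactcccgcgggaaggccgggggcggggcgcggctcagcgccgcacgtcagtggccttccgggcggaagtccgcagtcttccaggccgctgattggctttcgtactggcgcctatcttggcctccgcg
Mki67, CHR (chr7:135716380-135716529, minus strand): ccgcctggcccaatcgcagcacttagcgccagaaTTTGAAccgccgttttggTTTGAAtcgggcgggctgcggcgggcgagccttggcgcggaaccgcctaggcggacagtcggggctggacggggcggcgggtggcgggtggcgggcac
Ifit1, ISRE (chr19:34640739-34640888, plus strand): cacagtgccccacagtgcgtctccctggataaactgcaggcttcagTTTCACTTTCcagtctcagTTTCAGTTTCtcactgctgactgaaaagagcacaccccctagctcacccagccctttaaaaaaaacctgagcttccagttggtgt
Ifit3, ISRE (chr19:34583379-34583528, plus strand): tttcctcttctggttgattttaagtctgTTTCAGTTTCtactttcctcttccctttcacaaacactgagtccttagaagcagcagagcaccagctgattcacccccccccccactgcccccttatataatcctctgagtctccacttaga
Igtp, ISRE (chr11:58199406-58199555, plus strand): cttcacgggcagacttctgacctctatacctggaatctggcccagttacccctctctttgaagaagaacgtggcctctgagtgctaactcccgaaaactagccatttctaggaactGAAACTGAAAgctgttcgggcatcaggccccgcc
In Mcm6 the motifs began 110, 106 and 47 bases before the start, the first pair overlapping, and in Pola1 the motif began 138 bases before it. The Mki67 elements began 116 and 98 bases before the start. The ISRE lay 104 and 85 bases before the start of Ifit1, 122 before Ifit3 and 34 before Igtp.

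Motif shares were counted in windows from 250 bases before to 50 bases after each start, on both strands. An E2F motif was in 36.4% of the promoters of the DNA replication list (12 of 33), in 3.7% of those of the mitosis list (1 of 27) and in 2.26% of all 32851 promoters. A CHR was in 77.8% of the mitosis promoters (21 of 27), against 27.3% for DNA replication and 19.2% of all promoters. CCAAT, the element bound by NF-Y, was in 70.4% of the mitosis promoters and in 37.4% of all. An ISRE was in 45.8% of the promoters of the type I interferon list (11 of 24) and in 36% of those of the interferon-gamma list (9 of 25), against 3.44% of all promoters. Promoters were found for 28 of the 32 measured DNA replication genes, 26 of 31 mitosis genes, 19 of 28 type I interferon genes, 21 of 25 interferon-gamma genes and 14367 of the 18193 measured genes. Among the genes called higher in FL-Y (by the test described below), 11.3% of promoters held an E2F motif and 26.9% a CHR. Among those called lower the shares were 1.18% and 14.5%, and 6.9% held an ISRE. In the promoters of all measured genes the shares were 3.2% for E2F, 15% for the CHR and 3.04% for the ISRE, so the CHR share of the lower genes was close to that of measured genes. A motif match is a description of letters and not of a bound site.

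Genes of DNA replication, mitosis, DNA repair and ribosome assembly were higher in FL-Y than in cultured FDC. Interferon-inducible genes, many chemokines, antioxidant enzymes and blood cell markers, and the p53 target Cdkn1a, were lower. In all, 208 genes were at least 4-fold higher in FL-Y in each of the 4 pairs of arrays (1.14% of the genes measured) and 445 were at least 4-fold lower in each (2.45%), on the scale of log2(signal + 14.2). Of these 445 genes, 83 (0.456% of the genes measured) were also under the 20th percentile on both FL-Y arrays, a mark of background level, and are called lost here. Only 4 genes (0.022%) were under that mark on both FDC arrays and at least 4-fold higher in FL-Y. A like level, meaning above the 60th percentile on all 4 arrays with every pair within 1 on the log2 scale, was found for 4220 genes (23.2%). Among them were 5 of 20 measured collagens, 5 of 32 proteoglycans and matrix glycoproteins and 1 of 24 matrix proteases and inhibitors, or 25%, 15.6% and 4.17%. The share of the collagens was thus near that of all genes. That of the proteoglycans and glycoproteins was somewhat lower, and that of the proteases and inhibitors far lower.

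In limma's moderated test, with Benjamini-Hochberg adjustment over 27022 probe sets and a threshold of 0.05, 396 of 12484 genes tested were called higher (3.17%) and 577 lower (4.62%), 7.79% in either direction. The adjusted p-values of the called genes lay between 0.00277 and 0.0499, and the smallest called difference was 1.57 on the log2 scale. The calls need both FL-Y arrays: without the activated array, 0 genes were called higher and 1 lower by limma, and without the unactivated array again 0 and 1. At an unadjusted p under 0.05, limma with all 4 arrays gave 1760 higher and 2392 lower. Without FDC array 1 the calls numbered 721 higher and 901 lower, and without FDC array 2 they numbered 1192 and 1550. These limits hold for every call below; 192 of the 208 and 360 of the 445 genes that passed 4-fold in every pair were also called. With the deposited scaling the median gene differed by -0.21 between FL-Y and FDC on the log2 scale. With every array rescaled to one median, that shift became 0.23, and the share of calls that were higher moved from 40.7% (396 higher, 577 lower) to 72.3% (1370 higher, 526 lower).

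**Figure D1:**
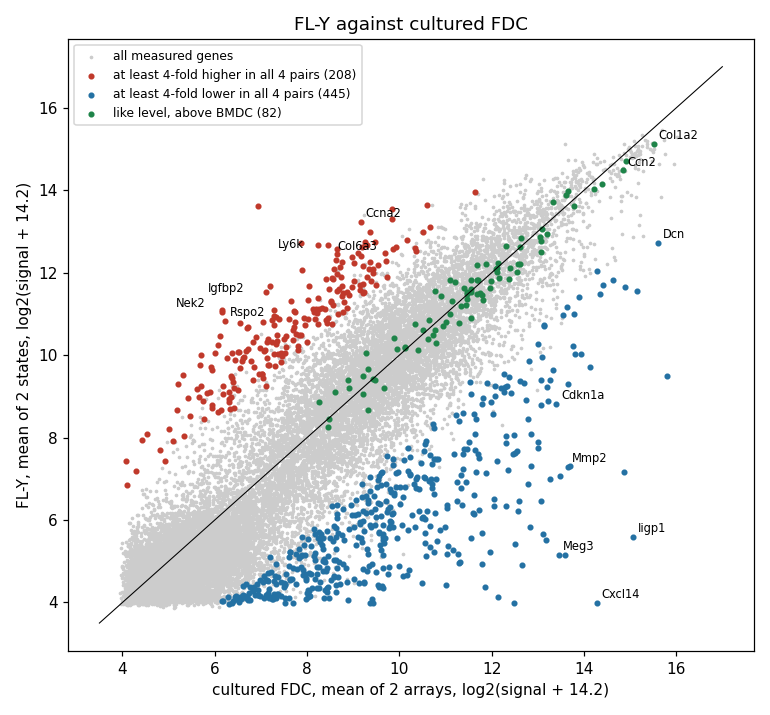
Mean log2(signal + 14.2) of each measured gene on the 2 FDC arrays (horizontal) and the 2 FL-Y arrays (vertical), with the line of equality. Red points are the 208 genes at least 4-fold higher and blue points the 445 at least 4-fold lower in all 4 array pairs, and green points are the 82 genes at a like level that lay at least 8-fold above both BMDC arrays; Cxcl14 and Iigp1 lie at the far lower right.

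Signals below are given for FDC arrays 1 and 2 in that order, then for the unactivated and the activated FL-Y array in that order, each on the authors' scale. All 32 measured genes of the DNA replication list lay above both FDC arrays on both FL-Y arrays (23% of all genes did so). Limma called 21 of them higher and 0 lower (29 and 0 at an unadjusted p under 0.05), and 17 were at least 4-fold higher in every pair. The median difference of the list was 2.55 on the log2 scale, against -0.21 for all genes, and it was 2.49 for the unactivated and 2.69 for the activated state. Mcm10, which helps to start the replication fork, had signals of 33 and 129.6 on FDC, 975 on unactivated FL-Y and 1138 on activated FL-Y (log2 difference 3.7, SE 0.59, limma adjusted p = 0.0389). Tk1, thymidine kinase, had signals of 199 and 731 on FDC, 5075 on unactivated FL-Y and 5079 on activated FL-Y (log2 difference 3.68, SE 0.64, limma adjusted p = 0.0435). Both genes were higher on FDC array 2 than on FDC array 1, and the FL-Y arrays were close to each other. Mcm6 had 403 and 1013 on FDC, 8377 on unactivated FL-Y and 7808 on activated FL-Y (log2 difference 3.63, SE 0.51, limma adjusted p = 0.0358), a 12.4-fold difference on that scale. Mcm3, of the same helicase, had 152 and 407 on FDC, 2656 on unactivated FL-Y and 3954 on activated FL-Y (log2 difference 3.62, SE 0.55, limma adjusted p = 0.0378). The FDC arrays did not overlap the FL-Y arrays for any of these genes. Pola1 had 53.5 and 141 on FDC, 964 on unactivated FL-Y and 1226 on activated FL-Y (log2 difference 3.43, SE 0.49, limma adjusted p = 0.0373). Pcna, the sliding clamp, was not called, with 7641 and 10513 on FDC, 19552 on unactivated FL-Y and 19291 on activated FL-Y (adjusted p = 0.103 in limma).

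All 31 measured genes lay above both FDC arrays on both FL-Y arrays, 14 were called higher by limma and 0 lower (31 and 0 at an unadjusted p under 0.05), 17 were at least 4-fold higher in every pair, and the median difference was 3.03. Birc5, the survivin of the chromosomal passenger complex, had 196 and 756 on FDC, 5855 on unactivated FL-Y and 6326 on activated FL-Y (log2 difference 3.92, SE 0.66, limma adjusted p = 0.0413). Aurkb, the kinase of that complex, had 36.9 and 149 on FDC, 886 on unactivated FL-Y and 1281 on activated FL-Y (log2 difference 3.57, SE 0.62, limma adjusted p = 0.0439). Cenpf, a kinetochore protein, had 79.9 and 247 on FDC, 2058 on unactivated FL-Y and 2336 on activated FL-Y (log2 difference 3.82, SE 0.55, limma adjusted p = 0.0373). Kif23, a motor of cytokinesis, had 228 and 768 on FDC, 4580.2 on unactivated FL-Y and 5192 on activated FL-Y (log2 difference 3.49, SE 0.61, limma adjusted p = 0.0439). In all 4 genes FDC array 2 was the higher FDC array and FL-Y exceeded it. Over the whole list FDC array 2 exceeded FDC array 1 by a median of 1.69, and over the DNA replication list by 1.07. Mki67 had 379 and 854 on FDC, 6051 on unactivated FL-Y and 6499 on activated FL-Y (log2 difference 3.43, SE 0.47, limma adjusted p = 0.0345); its signals on the BMDC arrays were 6679 and 6133, level with FL-Y. The summed signal of the mitosis list was 10985 and 39706 on the FDC arrays, 135711 and 145768 on the FL-Y arrays and 69283 and 90224 on the BMDC arrays, so cultured FDC were the low cell type of the 3.

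Of the 29 measured genes for RB proteins, E2F factors, cyclins and their inhibitors, limma called 5 higher and 1 lower. Over all genes tested the shares were 3.17% and 4.62%. At a like level were 8 genes of the list (27.6%, against 23.2% of all genes). Apart from fixed genes such as Rb1 and Cdkn2a, genes of this and later lists that are named beyond the 4 largest calls were chosen after their values were seen. Ccna2, the cyclin of S phase and an E2F target, had 254 and 1211 on FDC, 9392 on unactivated FL-Y and 9801 on activated FL-Y (log2 difference 4.07, SE 0.75, limma adjusted p = 0.0468). Mybl2, a transcription factor that acts on mitotic promoters, had 43.3 and 103 on FDC, 619 on unactivated FL-Y and 822 on activated FL-Y (log2 difference 3.15, SE 0.46, limma adjusted p = 0.0373). E2f7, a repressor of the E2F family, had 56.1 and 110.3 on FDC, 785 on unactivated FL-Y and 829 on activated FL-Y (log2 difference 3.13, SE 0.4, limma adjusted p = 0.032). The other genes called higher were E2f4 (log2 difference 1.9) and the E2F partner Tfdp1 (1.72). The D-type cyclins, which act above RB, were not called: Ccnd1 had 5366 and 16406 on FDC and 9443 and 12802 on FL-Y. Ccnd2 had 9636 and 14180.4 on FDC and 14498 and 8782 on FL-Y, so that FDC and FL-Y overlapped for both. Rb1 itself had 313 and 179 on FDC and 77.5 and 81.6 on FL-Y and was not called (log2 difference -1.42, SE 0.38, limma adjusted p = 0.0854). Cdkn2a, the locus of the inhibitors p16 and p19ARF, had 979 and 966 on FDC and 829 and 505 on FL-Y, against 97.6 and 125 on BMDC. Cdkn1c, the imprinted inhibitor p57, was the gene called lower, with 246 and 117 on FDC, 5.1 on unactivated FL-Y and 10.3 on activated FL-Y (log2 difference -3.09, SE 0.44, limma adjusted p = 0.0373).

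**Figure D2:**
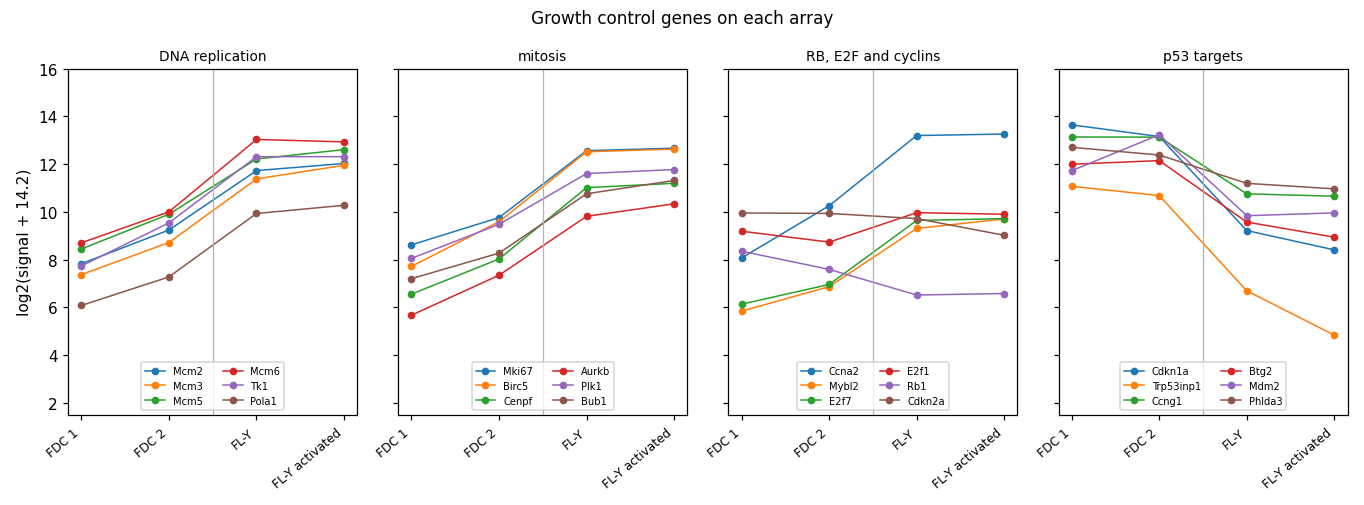
Log2(signal + 14.2) of 24 growth control genes on FDC arrays 1 and 2 and on the unactivated and activated FL-Y arrays, in 4 panels of 6; each line is 1 gene. Replication and mitosis genes are higher on both FL-Y arrays, E2f1 and Cdkn2a differ less, and the 6 p53 targets shown lie lower on both.

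In the list of p53 and its targets most genes went the opposite way. The signal of Trp53, the gene of p53 itself, is not given here. Of 27 measured genes, limma called 5 lower and 0 higher (10 and 1 at an unadjusted p under 0.05), 19 lay below both FDC arrays on both FL-Y arrays (35.2% of all genes did so) and 2 above, and the median difference was -1.05. Cdkn1a, the p21 inhibitor of cyclin-dependent kinases, had 12813 and 9115 on FDC, 581 on unactivated FL-Y and 326 on activated FL-Y, 24.1-fold lower in FL-Y (log2 difference -4.59, SE 0.42, limma adjusted p = 0.0253). Its signals on the BMDC arrays were 4929 and 7768, between the other cell types. Trp53inp1, a stress protein that acts with p53, had 2137 and 1633 on FDC, 89.4 on unactivated FL-Y and 14.4 on activated FL-Y (log2 difference -5.11, SE 0.66, limma adjusted p = 0.0329). Btg2, an antiproliferative target, had 4074 and 4527 on FDC, 748 on unactivated FL-Y and 478 on activated FL-Y (log2 difference -2.81, SE 0.36, limma adjusted p = 0.0326). Ccng1, a cyclin that feeds back on p53, had 9007 and 8964 on FDC, 1714 on unactivated FL-Y and 1602 on activated FL-Y (log2 difference -2.43, SE 0.3, limma adjusted p = 0.0319). The groups did not overlap for any of these genes. The fifth gene called was Ddb2 (log2 difference -2.08), a damage-binding protein. Mdm2, the ubiquitin ligase of p53, was lower on both FL-Y arrays but missed the threshold, with 3377 and 9593 on FDC, 903 on unactivated FL-Y and 982 on activated FL-Y (log2 difference -2.58, SE 0.56, limma adjusted p = 0.0591). The death genes Bbc3 and Apaf1 and the nuclease gene Aen were at a like level, and Tigar, an enzyme that slows glycolysis, had a difference of 1.94 that was not called (limma adjusted p = 0.0585).

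Genes of the DNA damage response and of homologous repair were all higher on both FL-Y arrays (23 of 23 measured), with 10 called higher by limma, 0 lower (21 and 0 at an unadjusted p under 0.05) and a median difference of 1.76. Clspn, the claspin adaptor of the checkpoint kinase CHK1, had 81.1 and 104 on FDC, 1018 on unactivated FL-Y and 1219 on activated FL-Y (log2 difference 3.41, SE 0.33, limma adjusted p = 0.0253). Chek1, which encodes that kinase, had 122 and 139.5 on FDC, 757 on unactivated FL-Y and 950.5 on activated FL-Y (log2 difference 2.57, SE 0.32, limma adjusted p = 0.0319). Rad54l, a recombination motor, had 90.4 and 132 on FDC, 676 on unactivated FL-Y and 806 on activated FL-Y (log2 difference 2.6, SE 0.35, limma adjusted p = 0.0338). In these genes the FDC arrays lay close together, so the differences were large against the spread. The sensor kinases were nearer: Atm had 752 and 474 on FDC and 1100.2 and 1269 on FL-Y, and neither it nor Atr was called.

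Genes of ribosome assembly and translation were mostly higher as well. Of 24 measured, 9 were called higher by limma and 0 lower (17 and 0 at an unadjusted p under 0.05), 20 lay above on both, and the median difference was 1.55. Cad, which begins pyrimidine synthesis, had 388 and 469.8 on FDC, 2763 on unactivated FL-Y and 3048 on activated FL-Y (log2 difference 2.73, SE 0.32, limma adjusted p = 0.0286). Polr1b, the second largest subunit of RNA polymerase I, had 159 and 164 on FDC, 840.1 on unactivated FL-Y and 1184 on activated FL-Y (log2 difference 2.53, SE 0.34, limma adjusted p = 0.0343). Nop56, of the small nucleolar ribonucleoproteins, had 944 and 2067 on FDC, 7833 on unactivated FL-Y and 8385 on activated FL-Y (log2 difference 2.52, SE 0.46, limma adjusted p = 0.0466). Nolc1, a nucleolar chaperone, had 768 and 1426 on FDC, 4738 on unactivated FL-Y and 6312 on activated FL-Y (log2 difference 2.37, SE 0.43, limma adjusted p = 0.0455). Myc, which drives these genes, was higher on both FL-Y arrays with 3858 and 4721 against 1342 and 2509, and did not pass the test (log2 difference 1.21, SE 0.42, limma adjusted p = 0.133). Of 23 measured genes of glycolysis and the hypoxia response, limma called 0 in either direction (at an unadjusted p under 0.05, 0 higher and 3 lower). On both FL-Y arrays 13 lay below both FDC arrays (56.5%, against 35.2% of all genes). At a like level were 11 (47.8%, against 23.2% of all genes), among them Ldha, lactate dehydrogenase (34396 and 39769.7 on FDC and 32961 and 26397 on FL-Y). Of 21 sterol and lipid genes, all tested, 11 were at a like level (52.4%, against 23.2% of all genes). Limma called 1 higher, while 3.17% of all genes tested were. It was Elovl6, a fatty acid elongase, with 216 and 477 on FDC, 2128 on unactivated FL-Y and 2280.4 on activated FL-Y (log2 difference 2.72, SE 0.46, limma adjusted p = 0.0413). Of its 3 probe sets 1 had the opposite sign.

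**Figure D3:**
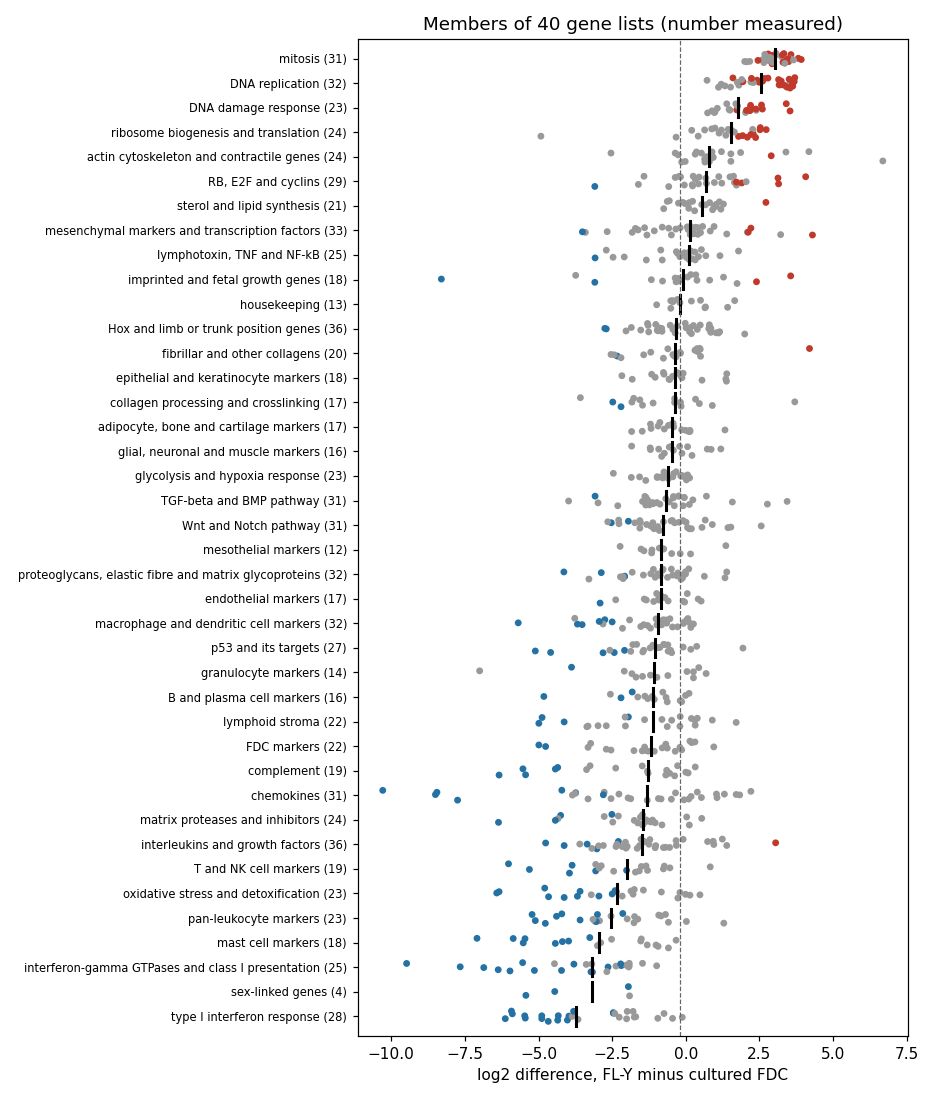
Log2 difference (FL-Y mean minus FDC mean) of every measured member of 40 gene lists, sorted by median; black bars are list medians, the dashed line is the median of all genes (-0.21), red points were called higher and blue points lower by limma, and grey points were not called or not tested. Mitosis (median 3.03) and DNA replication (2.55) lie at the top, and the type I interferon list (-3.73) at the bottom.

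Of 364 genes that lay at least 8-fold above both BMDC arrays on both FDC arrays and above the 60th percentile there, 87 were at a like level in FL-Y, 71 were at least 4-fold lower in every pair, 3 of them lost (Ccl11, Pcsk5 and Cacna1g), and 1 was at least 4-fold higher (Ly6k). These genes were chosen for being high on FDC, so nothing is read from that split. For 82 genes (0.451% of the genes measured) the level was like on all 4 arrays and at least 8-fold above both BMDC arrays on all 4. Those with the highest signals are named here. Col1a2, a chain of type I collagen, had 50251 and 43768 on FDC, 42140.5 on unactivated FL-Y and 30499.9 on activated FL-Y, against 95.1 and 342 on BMDC; 2 of its 3 probe sets had the opposite sign. Col5a2, of type V collagen, had 33076 and 29124 on FDC and 31118 and 23303 on FL-Y, against 23.5 and 116 on BMDC. Pcolce, which speeds the trimming of procollagen, had 23003 and 15720 on FDC and 18002 and 15679 on FL-Y. Serpinh1, the collagen chaperone, had 14466 and 11400.1 on FDC and 17978 and 14578 on FL-Y. Loxl1, which crosslinks elastin, had 18895 and 10415 on FDC and 14769 and 10651 on FL-Y. Nid1, a basement membrane linker, had 7480.2 and 9665 on FDC and 6857 and 8182 on FL-Y. For each of these 6 genes the FL-Y arrays were within 1 on the log2 scale of the FDC arrays; the sign of the small remainder changed with the scaling for all but Serpinh1.

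The other bright genes of these 82 had mixed roles. Of 24 measured actin and contractile genes 5 were at a like level (20.8%, against 23.2% of all genes), so that list does not stand out for genes kept. On both FL-Y arrays 14 of the 24 lay above both FDC arrays (58.3%, against 23% of all genes) and 2 lay below. Its median difference was 0.78, against -0.21 for all genes. Ccn2, a growth factor-binding matrix protein induced by stretch, had 29619 and 29268 on FDC and 26045 and 20239 on FL-Y, against 5.9 and 57.6 on the BMDC arrays. Its relative Ccn1 had 7492 and 10010.5 on FDC and 9965 and 7338 on FL-Y. Cald1, the actin-binding caldesmon, had 19799.9 and 23589 on FDC and 19833 and 16499 on FL-Y. Cnn3, an acidic calponin, had 11495 and 13543 on FDC and 14788 and 15345 on FL-Y. Cavin2, of caveolae, had 10042 and 10647 on FDC and 12843 and 13913 on FL-Y. Aebp1, a matrix protein of fibroblasts, had 11238 and 7804 on FDC and 8769 and 6989 on FL-Y. Yap1 and Tead1, the cofactor and DNA-binding factor that act on Ccn1 and Ccn2, were also among the 82, with 4780.3 and 4038 on FDC and 4711 and 4216 on FL-Y for Yap1 and 2449 and 1928 on FDC and 3623 and 3552 on FL-Y for Tead1; both were named after their values were seen.

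Of 20 measured collagens, all tested, limma called 1 higher and 1 lower, near the shares of all genes tested (3.17% and 4.62%). At a like level were 5 (25%, against 23.2% of all genes). The median difference of -0.36 turned to 0.22 with one median for all arrays. The gene called higher was Col6a3, a chain of the microfibrillar type VI collagen, with 421 and 270.4 on FDC, 8988 on unactivated FL-Y and 4658 on activated FL-Y, 18.4-fold higher in FL-Y (log2 difference 4.2, SE 0.46, limma adjusted p = 0.028). The other chains were not called: Col6a1 had 21944 and 764 on FDC and 6934 and 4846 on FL-Y. Col6a2 had 6684 and 455 on FDC and 2987 and 1765 on FL-Y. The FDC arrays enclosed the FL-Y arrays for both, so no direction could be read. The gene called lower was Col15a1, of basement membrane zones, with 227 and 350.5 on FDC and 59.8 and 33 on FL-Y (log2 difference -2.33, SE 0.41, limma adjusted p = 0.0439). Col1a1 had 27728 and 12786 on FDC and 31443 and 21747 on FL-Y, which overlapped.

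Some matrix proteases, the proteoglycan gene Dcn and a few matrix glycoproteins fell. Of 24 measured matrix proteases and inhibitors, limma called 4 lower and 0 higher (11 and 0 at an unadjusted p under 0.05), 15 lay below on both and 0 above, and the median difference was -1.47. Mmp2, gelatinase A, had 19842 and 8292 on FDC, 161 on unactivated FL-Y and 126 on activated FL-Y, 82.1-fold lower in FL-Y (log2 difference -6.36, SE 0.5, limma adjusted p = 0.0252). Mmp19 had 743 and 746 on FDC, 144 on unactivated FL-Y and 98.3 on activated FL-Y (log2 difference -2.51, SE 0.34, limma adjusted p = 0.0343), with 3851 and 2950.5 on the BMDC arrays. Mmp12, the macrophage elastase, had 132 and 723 on FDC, 5 on unactivated FL-Y and 1.4 on activated FL-Y (log2 difference -4.25, SE 0.79, limma adjusted p = 0.0478), and its signals of 76078 and 61117 on the BMDC arrays were far above those of FDC. Serping1, the inhibitor of the first complement component, had 40582 and 8040.2 on FDC, 1152 on unactivated FL-Y and 587 on activated FL-Y (log2 difference -4.43, SE 0.84, limma adjusted p = 0.049). Of 32 measured proteoglycans and matrix glycoproteins, 4 were called lower and 0 higher. Dcn, the collagen-binding proteoglycan decorin, had 52260.1 and 47482 on FDC, 4233 on unactivated FL-Y and 10877 on activated FL-Y (log2 difference -2.87, SE 0.52, limma adjusted p = 0.0461). Efemp1, a fibulin, had 5747 and 1203 on FDC, 153 on unactivated FL-Y and 120.3 on activated FL-Y (log2 difference -4.14, SE 0.77, limma adjusted p = 0.0474), with a wide gap between the FDC arrays. Ecm1 and Emilin1 were the other genes called lower, with log2 differences of -2.08 and -2.08. Among collagen-processing genes, the crosslinker Loxl3 had 16161 and 14406 on FDC, 2466 on unactivated FL-Y and 3017 on activated FL-Y (log2 difference -2.48, SE 0.32, limma adjusted p = 0.0326). Bmp1, the C-proteinase of procollagen, had 5504 and 3950.5 on FDC, 1298 on unactivated FL-Y and 778 on activated FL-Y (log2 difference -2.2, SE 0.41, limma adjusted p = 0.0472).

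The label of the line as FDC-like was set against genes that mark mesenchyme and FDC. Of 33 measured mesenchymal markers and transcription factors, 9 were at a like level (27.3%, against 23.2% of all genes). Of the 31 tested, limma called 3 higher and 1 lower, against 3.17% and 4.62% of all genes tested. The like-level and lower counts thus do not stand out. On both FL-Y arrays 11 of the 33 lay above both FDC arrays and 12 below (33.3% and 36.4%, against 23% and 35.2% of all genes). The median difference of the list was 0.15. Prrx1, a homeobox factor of connective tissue, had 8380.4 and 8874 on the FDC arrays, 5516 and 6043 on the FL-Y arrays and 50.6 and 23.8 on the BMDC arrays. Twist1 had 918 and 568 on FDC and 836 and 776 on FL-Y. Nr2f2 had 1882 and 1324 on FDC and 2119 and 1595 on FL-Y. Other members were lower on both FL-Y arrays without a call. Fap had 1296 and 288 on FDC and 87.7 and 81.2 on FL-Y. Dpt had 1513 and 219 on FDC and 73.5 and 21.7 on FL-Y. Foxc2, a forkhead factor of paraxial mesoderm and lymphatic vessels, had 10.9 and 92.3 on FDC, 1026 on unactivated FL-Y and 987 on activated FL-Y (log2 difference 4.3, SE 0.72, limma adjusted p = 0.0409). Osr1, of intermediate mesoderm, had 936 and 1056 on FDC, 6086 on unactivated FL-Y and 3561 on activated FL-Y (log2 difference 2.21, SE 0.39, limma adjusted p = 0.0441). Tbx18, of the sinus horn and epicardium, had 272 and 242 on FDC, 1212 on unactivated FL-Y and 1118 on activated FL-Y (log2 difference 2.12, SE 0.31, limma adjusted p = 0.0373). Ebf2, an early B cell factor relative found in adipose precursors, went the other way with 1054 and 554 on FDC, 60.8 on unactivated FL-Y and 47.8 on activated FL-Y (log2 difference -3.51, SE 0.42, limma adjusted p = 0.0305), while Ebf3 was at a like level with 400.4 and 356 on FDC and 582 and 499.9 on FL-Y.

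Of 36 measured Hox and other position genes, which record the body region a cell comes from, 19 were bright enough to test. Limma called 0 higher and 2 lower (4 and 3 at an unadjusted p under 0.05). Of all genes tested, 4.62% were called lower. Hoxd8 had 171 and 384 on FDC, 30.7 on unactivated FL-Y and 24.5 on activated FL-Y (log2 difference -2.7, SE 0.46, limma adjusted p = 0.0423). Pitx1, a hindlimb factor, had 127 and 179 on FDC, 11.6 on unactivated FL-Y and 9.3 on activated FL-Y (log2 difference -2.75, SE 0.33, limma adjusted p = 0.0312). Genes of the HoxA and HoxC clusters gave signal in both cell types: Hoxc6 had 617 and 609 on FDC and 413 and 429.6 on FL-Y. Hoxa10 had 334 and 239 on FDC and 445 and 235 on FL-Y. Hoxc10 had 777 and 762 on FDC and 1680.1 and 1162 on FL-Y. On the BMDC arrays Hoxc10 had 13 and 14.8. Acta2, smooth muscle actin, had 5937 and 25468 on FDC, 42509.8 on unactivated FL-Y and 29598 on activated FL-Y and was not called (log2 difference 1.53, SE 0.74, limma adjusted p = 0.232). Of 24 measured actin and contractile genes, 23 were tested and 1 was called higher, while 3.17% of all genes tested were. It was Itga8, an integrin chain of contractile mesenchyme, with 4.7 and 5.9 on FDC, 194 on unactivated FL-Y and 88.1 on activated FL-Y (log2 difference 2.9, SE 0.44, limma adjusted p = 0.0378). Actg2, the smooth muscle actin of the gut, had 4.9 and 761 on FDC, 15697 on unactivated FL-Y and 9968 on activated FL-Y, with a wide gap between the FDC arrays, and was not called (log2 difference 6.69, limma adjusted p = 0.0771). Itga8 was also 1 of the 4 genes near background in FDC only.

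**Figure D4:**
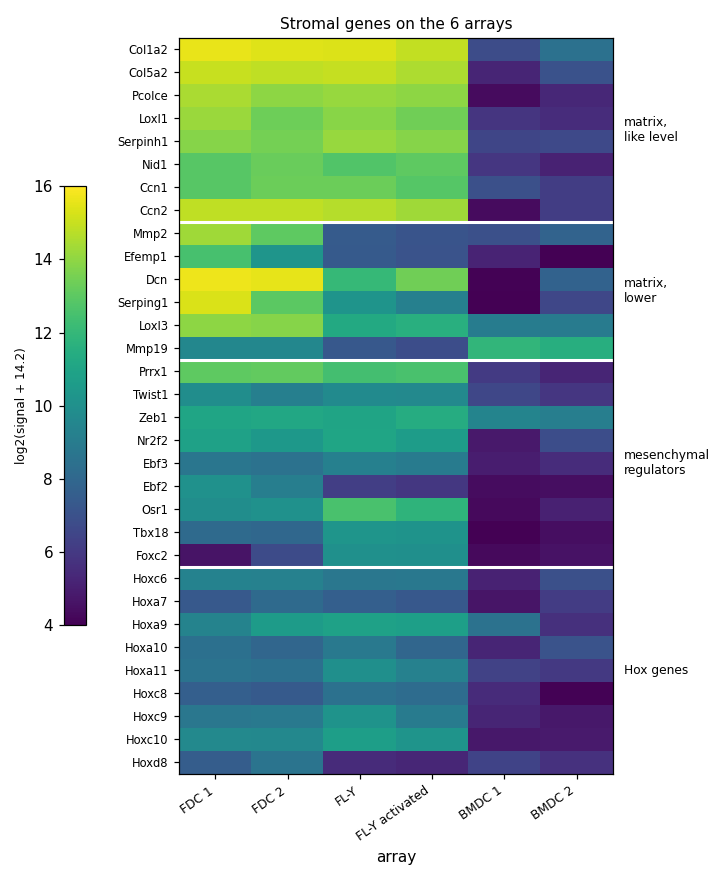
Log2(signal + 14.2) of 32 stromal genes on all 6 arrays as colour, grouped as matrix genes at a like level, matrix genes that were lower in FL-Y, mesenchymal regulators and Hox genes. The like-level matrix genes are bright on the 4 FDC and FL-Y arrays and dark on both BMDC arrays, while Mmp2, Efemp1 and Ebf2 are dark on both FL-Y arrays.

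The largest rises among the genes called had mixed roles. Nek2, a centrosomal kinase of mitosis, had 30.5 and 99.1 on FDC, 1903 on unactivated FL-Y and 2469 on activated FL-Y, 30.7-fold higher in FL-Y (log2 difference 4.94, SE 0.53, limma adjusted p = 0.0274). Shcbp1, a midbody protein, had 108 and 163 on FDC, 2905 on unactivated FL-Y and 3614 on activated FL-Y (log2 difference 4.47, SE 0.36, limma adjusted p = 0.0252). Ska1, a kinetochore protein, had 5 and 66.9 on FDC, 484 on unactivated FL-Y and 1052 on activated FL-Y (log2 difference 4.21, SE 0.79, limma adjusted p = 0.0485). Outside mitosis, Rspo2, a secreted amplifier of Wnt signals, had 69.6 and 46.3 on FDC, 1737 on unactivated FL-Y and 2553 on activated FL-Y (log2 difference 4.9, SE 0.38, limma adjusted p = 0.0252). Igfbp2, which binds insulin-like growth factors, had 97.2 and 159 on FDC, 3345 on unactivated FL-Y and 2616 on activated FL-Y (log2 difference 4.42, SE 0.38, limma adjusted p = 0.0252). Ly6k, a glycolipid-anchored protein best known from testis, had 402 and 204 on FDC, 6583 on unactivated FL-Y and 6392 on activated FL-Y (log2 difference 4.43, SE 0.42, limma adjusted p = 0.0253). Slc7a3, a cationic amino acid transporter, had 47.3 and 64.2 on FDC, 1999.5 on unactivated FL-Y and 989 on activated FL-Y (log2 difference 4.36, SE 0.45, limma adjusted p = 0.0263). Met, the receptor of hepatocyte growth factor, had 41.1 and 143 on FDC, 1464 on unactivated FL-Y and 2066 on activated FL-Y (log2 difference 4.23, SE 0.58, limma adjusted p = 0.0346). The FDC and FL-Y arrays did not overlap for any of the 8. For Nek2 1 of 4 probe sets, for Ska1 2 of 3 and for Ly6k 1 of 2 had the opposite sign. Of those probe sets only 1, of Ska1, was bright enough to test, and it was not called.

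Besides Itga8, the genes near background in FDC only were Dscam, Dlx1 and Tmem74. Dscam, an adhesion molecule of neurons, had 11 and 4 on FDC, 272 on unactivated FL-Y and 198 on activated FL-Y (log2 difference 3.53, SE 0.36, limma adjusted p = 0.026), but 3 of its 5 probe sets had the opposite sign. Dlx1, a homeobox factor of the forebrain and branchial arches, had 2.3 and 3.2 on FDC, 159 on unactivated FL-Y and 159.6 on activated FL-Y (log2 difference 3.36, SE 0.3, limma adjusted p = 0.0253). Tmem74 had 2.8 and 3 on FDC, 80.2 on unactivated FL-Y and 126 on activated FL-Y and was under the filter for testing. Imprinted genes moved in both directions, with 2 of 18 called higher and 2 lower. Of the 18, 14 were tested, and of all genes tested 3.17% were called higher and 4.62% lower. Plagl1, a zinc finger factor of the fetal growth network, had 34.8 and 35.3 on FDC, 628 on unactivated FL-Y and 509.5 on activated FL-Y (log2 difference 3.56, SE 0.31, limma adjusted p = 0.0253), and 2 of its 3 probe sets had the opposite sign. Dlk1, a Notch-like growth regulator, had 30 and 34.3 on FDC, 312 on unactivated FL-Y and 168 on activated FL-Y (log2 difference 2.4, SE 0.4, limma adjusted p = 0.0411), and 1 of its 2 probe sets had the opposite sign. Meg3, the noncoding RNA transcribed from the same imprinted cluster as Dlk1, had 8382 and 14889.9 on FDC, 22.7 on unactivated FL-Y and 20 on activated FL-Y, 315-fold lower in FL-Y (log2 difference -8.3, SE 0.4, limma adjusted p = 0.0138), with all 11 of its probe sets in that direction.

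The type I interferon list had the lowest median of the 40 lists. Of 28 measured genes of the type I interferon response, 15 were called lower by limma and 0 higher (23 and 0 at an unadjusted p under 0.05), 24 lay below both FDC arrays on both FL-Y arrays, and the median difference was -3.73. Rtp4, a chaperone of receptors, had 4841 and 10448 on FDC, 112 on unactivated FL-Y and 95.7 on activated FL-Y (log2 difference -5.92, SE 0.46, limma adjusted p = 0.0252). Zbp1, a sensor of left-handed nucleic acid, had 3142 and 12123 on FDC, 83.4 on unactivated FL-Y and 65.5 on activated FL-Y (log2 difference -6.13, SE 0.68, limma adjusted p = 0.028). Usp18, which removes ISG15 and dampens the receptor, had 906 and 5778 on FDC, 23.9 on unactivated FL-Y and 25.4 on activated FL-Y (log2 difference -5.89, SE 0.88, limma adjusted p = 0.0378). Ifit3 had 1657 and 6778 on FDC, 61 on unactivated FL-Y and 62.7 on activated FL-Y (log2 difference -5.47, SE 0.7, limma adjusted p = 0.0326). FDC array 2 was the higher FDC array for all 4 genes, and both FL-Y arrays were far below FDC array 1. Ifit1, whose promoter is shown above, had 1558 and 2765 on FDC, 72.7 on unactivated FL-Y and 62.9 on activated FL-Y (log2 difference -4.67, SE 0.4, limma adjusted p = 0.0252).

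The interferon-gamma list showed the same direction for every member. All 25 measured genes lay below on both FL-Y arrays, 14 were called lower by limma and 0 higher (25 and 0 at an unadjusted p under 0.05), 14 were at least 4-fold lower in every pair, and the median difference was -3.19. Iigp1, an immunity-related GTPase that strips parasite vacuoles, had 24305 and 48445 on FDC, 30.4 on unactivated FL-Y and 37.9 on activated FL-Y, 712-fold lower in FL-Y (log2 difference -9.48, SE 0.44, limma adjusted p = 0.0138). Igtp had 6676 and 26146 on FDC, 158 on unactivated FL-Y and 134 on activated FL-Y (log2 difference -6.37, SE 0.69, limma adjusted p = 0.0276). Gbp6, a guanylate-binding protein, had 4965 and 17416 on FDC and 27.3 and 36.9 on FL-Y (log2 difference -7.66). Gbp7 had 1336 and 9376 on FDC and 31.7 and 6.3 on FL-Y (-6.86); their family holds near-identical copies, so a signal can be shared between members. Of class I presentation, H2-K1, a heavy chain with near-identical relatives, had 32687 and 36123 on FDC, 6347 on unactivated FL-Y and 8875 on activated FL-Y (log2 difference -2.19, SE 0.34, limma adjusted p = 0.0384). B2m, its light chain, had 38308 and 35149 on FDC and 18444 and 18573 on FL-Y and was not called. Tap1, which pumps peptides for class I, had 1639 and 3976 on FDC, 104 on unactivated FL-Y and 146 on activated FL-Y (log2 difference -4.22, SE 0.52, limma adjusted p = 0.0312). Across the list FDC array 2 exceeded FDC array 1 by a median of 1.27, and the summed signal was 184792 and 346376 on the FDC arrays, 39182 and 46306 on the FL-Y arrays and 169553 and 124511 on the BMDC arrays. On the same arrays, 9 of 23 pan-leukocyte, 8 of 18 mast cell and 6 of 19 T and NK cell markers were called lower in FL-Y, with the levels given below, and their part in the interferon and chemokine differences was not tested. In bulk RNA, fewer cells of a type and less RNA per cell cannot be told apart.

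The largest fall among the genes called was that of a chemokine. Of 31 measured chemokines, 7 were called lower by limma and 0 higher (11 and 3 at an unadjusted p under 0.05), and 5 were lost. Cxcl14, a chemokine of stroma and epithelium, had 19395 and 20606 on FDC, 2.6 on unactivated FL-Y and 1 on activated FL-Y (log2 difference -10.29, SE 0.31, limma adjusted p = 0.00277). Ccl11, eotaxin, had 20007 and 1625 on FDC, 1.8 on unactivated FL-Y and 1.5 on activated FL-Y (log2 difference -8.5, SE 1.16, limma adjusted p = 0.0346). Ccl8 had 21002 and 7304 on FDC, 45.1 on unactivated FL-Y and 7.1 on activated FL-Y (log2 difference -8.45, SE 0.73, limma adjusted p = 0.0253). Cxcl9, which interferon-gamma induces, had 1421 and 29344 on FDC, 19.4 on unactivated FL-Y and 12.9 on activated FL-Y (log2 difference -7.75, SE 1.39, limma adjusted p = 0.0453). The FL-Y arrays were dark for all 4 genes, while the FDC arrays differed widely for Ccl11 and Cxcl9. Differences of genes this dim in FL-Y depend on the offset of 14.2. Cxcl12, the chemokine of reticular stroma, had 33355 and 864 on FDC and 20767 and 15065 on FL-Y, so that FL-Y lay between the FDC arrays. Cxcl13, the B cell attractant that defines FDC in tissue, had 1288 and 64.5 on FDC, 47.9 on unactivated FL-Y and 2.3 on activated FL-Y and was not called (log2 difference -3.32, SE 1.43, limma adjusted p = 0.192). FDC array 2 was near the unactivated FL-Y array for Cxcl13.

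Of 22 measured FDC markers, Cxcl13 among them, 21 were tested. Limma called 2 lower and 0 higher (9 and 0 at an unadjusted p under 0.05), while 4.62% of all genes tested were called lower. On both FL-Y arrays 14 of the 22 lay below both FDC arrays (63.6%, against 35.2% of all genes) and 1 lay above. The median difference of the list was -1.17, against -0.21 for all genes. At a like level were 3 of the markers (13.6%, against 23.2% of all genes). Bst1, the surface enzyme BP-3 of lymphoid stroma, had 2468 and 2756 on FDC, 64.3 on unactivated FL-Y and 72.7 on activated FL-Y (log2 difference -4.99, SE 0.31, limma adjusted p = 0.0235). Il6, a cytokine of the germinal centre, had 4838 and 11351 on FDC, 213 on unactivated FL-Y and 317 on activated FL-Y (log2 difference -4.76, SE 0.52, limma adjusted p = 0.0276). Vcam1, the adhesion molecule that binds B cells, was at a like level, with 6959 and 5764 on FDC, 4816 on unactivated FL-Y and 6295 on activated FL-Y. Mfge8, which marks dying cells for uptake and is a defining protein of FDC, had 5146 and 6484 on FDC and 4688 and 4304 on FL-Y, but 27358 and 25082 on the BMDC arrays. Icam1 had 1832 and 2360 on FDC, 115 on unactivated FL-Y and 789 on activated FL-Y, so that the activated state lay between the unactivated state and FDC (log2 difference -2.7, SE 0.88, limma adjusted p = 0.12). Of the receptors that hold immune complexes, Cr2 had 119.5 and 4.1 on FDC and 41.9 and 21.6 on FL-Y. Fcgr2b had 199 and 198 on FDC and 32.3 and 70.9 on FL-Y, against 32488 and 23877 on the BMDC arrays. Madcam1, an adhesion molecule for lymphocyte integrins, had 108 and 69.6 on FDC and 71.2 and 35.5 on FL-Y. Neither Cr2 nor Madcam1 exceeded a signal of 119.5 on any of the 4 arrays, and Cr2 was under the 20th percentile on FDC array 2, so these defining markers gave little signal in the cells labelled FDC too.

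In the wider list of lymphoid stroma, 4 of 22 measured genes were called lower by limma and 0 higher. Of the 22, 19 were tested, and of all genes tested 4.62% were called lower and 3.17% higher. Ch25h, which makes a sterol that guides B cells, had 3204 and 10002 on FDC, 121 on unactivated FL-Y and 260.4 on activated FL-Y (log2 difference -4.88, SE 0.67, limma adjusted p = 0.0349). Il33, an alarmin of reticular cells, had 458 and 1420.1 on FDC, 39 on unactivated FL-Y and 27.4 on activated FL-Y (log2 difference -4.13, SE 0.59, limma adjusted p = 0.0373). Dll1, a Notch ligand, had 175 and 156 on FDC, 29 on unactivated FL-Y and 35.3 on activated FL-Y (log2 difference -1.95, SE 0.31, limma adjusted p = 0.0389). Pdpn, podoplanin, had 6473 and 11598 on FDC and 2948 and 3621 on FL-Y and did not pass (log2 difference -1.4, SE 0.41, limma adjusted p = 0.0982). Of 36 measured interleukins and growth factors, 5 were called lower and 1 higher. Kitl, stem cell factor, had 8580.3 and 3503 on FDC, 374 on unactivated FL-Y and 732 on activated FL-Y (log2 difference -3.35, SE 0.58, limma adjusted p = 0.0435). The gene that rose was Tslp, a cytokine that acts on dendritic and T cells, with 97.8 and 96.1 on FDC, 725 on unactivated FL-Y and 1135 on activated FL-Y (log2 difference 3.05, SE 0.36, limma adjusted p = 0.0298).

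In the lymphotoxin and NF-kB list the FL-Y states differed for several genes. Its median difference was -0.45 for the unactivated state and 0.2 for the activated state. Of 25 measured genes, 9 lay on 1 side of both FDC arrays in both states. Above were 4 (16%, against 23% of all genes) and below 5 (20%, against 35.2%). At a like level were 6 (24%, against 23.2% of all genes). Ltbr, the receptor that the antibody binds, had 3493 and 1323 on FDC, 3016 on unactivated FL-Y and 2363 on activated FL-Y, between the FDC arrays. Nfkb2, the subunit processed by that receptor's pathway, had 698 and 659 on FDC, 1404 on unactivated FL-Y and 4026 on activated FL-Y, above both FDC arrays in both states and not called (limma adjusted p = 0.111). Birc3, an NF-kB target, had 1827 and 1284 on the FDC arrays, 534 on the unactivated and 2931 on the activated FL-Y array, so that the states lay on opposite sides of FDC. The gene called was Ltb, a chain of lymphotoxin made by lymphocytes, which fell, with 172 and 198 on FDC, 10.3 on unactivated FL-Y and 8.2 on activated FL-Y (log2 difference -3.08, SE 0.31, limma adjusted p = 0.026).

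Of 19 measured complement genes, 5 were called lower by limma and 0 higher (8 and 0 at an unadjusted p under 0.05), and 15 lay below on both. Cfb, the alternative pathway protease, had 4178 and 1542 on FDC, 28.2 on unactivated FL-Y and 9.1 on activated FL-Y (log2 difference -6.34, SE 0.6, limma adjusted p = 0.0253). C2, its classical counterpart, had 6078 and 2904 on FDC, 112 on unactivated FL-Y and 51.6 on activated FL-Y (log2 difference -5.53, SE 0.53, limma adjusted p = 0.0256). Cd55, which shields cells from the cascade, had 1388 and 996 on FDC, 30.1 on unactivated FL-Y and 2.8 on activated FL-Y (log2 difference -5.44, SE 0.55, limma adjusted p = 0.026). Both BMDC arrays were dim for C2, at 6 and 5. Saa3, an acute phase protein, fell too, with 48111 and 18613 on FDC, 203 on unactivated FL-Y and 80.2 on activated FL-Y (log2 difference -7.71, SE 0.64, limma adjusted p = 0.0252).

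Many antioxidant and detoxifying enzymes fell. Of 23 measured, 10 were called lower by limma and 0 higher (16 and 0 at an unadjusted p under 0.05), 19 lay below on both and 0 above, and the median difference was -2.35. Gpx3, the secreted glutathione peroxidase, had 19300.3 and 6847 on FDC, 167 on unactivated FL-Y and 85.2 on activated FL-Y (log2 difference -6.42, SE 0.62, limma adjusted p = 0.0254). Sod3, the extracellular superoxide dismutase, had 17304 and 2096 on FDC, 89.9 on unactivated FL-Y and 39.2 on activated FL-Y (log2 difference -6.34, SE 1.04, limma adjusted p = 0.0398). Of the glutathione transferases, Gsta3 had 968 and 307 on FDC and 3.3 and 13.9 on FL-Y and Gsta4 had 1741 and 3385 on FDC and 74.5 and 74.2 on FL-Y, and both were called (log2 differences -4.66 and -4.79). The intracellular enzymes Sod1, Gpx1 and Gstp1 were at a like level. Of 31 measured genes of the TGF-beta and BMP pathway 28 were tested and 1 fell, Acvrl1, a receptor, with 2058 and 1260.4 on FDC and 190.4 and 167 on FL-Y (log2 difference -3.08, SE 0.38, limma adjusted p = 0.0312). Of 31 Wnt and Notch genes 25 were tested and 2 fell (4.62% of all genes tested did so), Dll1 and Axin2, the feedback inhibitor of Wnt, which had 173 and 133 on FDC and 6 and 26.7 on FL-Y (log2 difference -2.53, SE 0.45, limma adjusted p = 0.0447).

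Among the other large falls, Pcsk5, a proprotein convertase, had 16810.3 and 1184 on FDC, 6 on unactivated FL-Y and 0.8 on activated FL-Y (log2 difference -8.01, SE 1.23, limma adjusted p = 0.0384). Gm4951, a predicted gene, had 2216 and 6122 on FDC, 4 on unactivated FL-Y and 9.5 on activated FL-Y (log2 difference -7.48, SE 0.56, limma adjusted p = 0.0252). Ltc4s, leukotriene synthase, was lost, with 2680.4 and 1579.8 on FDC, 9.1 on unactivated FL-Y and 5.3 on activated FL-Y (log2 difference -6.6, SE 0.39, limma adjusted p = 0.0235), and its signals of 2853 and 1871 on the BMDC arrays were like those of FDC. Cacna1g, a calcium channel, was lost, with 1706 and 364 on FDC and 5.9 and 6.4 on FL-Y (log2 difference -5.31, SE 0.74, limma adjusted p = 0.0362). Rasgrf2, an exchange factor, had 3668 and 142 on FDC, 8 on unactivated FL-Y and 5.3 on activated FL-Y and was not called (limma adjusted p = 0.0921), with FDC arrays far apart.

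The lost genes included markers of blood cells. Of the 83 lost genes, 40 were called by limma. On both BMDC arrays 33 were higher than on both FDC arrays, and 28 were lower. The same shares over all genes were not counted, so nothing is read from that split. Of 23 measured pan-leukocyte markers, 9 were called lower by limma and 0 higher (14 and 1 at an unadjusted p under 0.05), 10 were at least 4-fold lower in every pair and 3 were lost. Ptprc, the CD45 of all leukocytes, had 823 and 423 on FDC, 12.8 on unactivated FL-Y and 4.1 on activated FL-Y (log2 difference -4.77, SE 0.45, limma adjusted p = 0.0253), against 13794 and 7715 on the BMDC arrays. Cd52, a surface peptide of lymphocytes, had 932 and 647 on FDC and 11.3 and 3.5 on FL-Y, against 40169 and 37903 on BMDC. Rac2, a GTPase of blood cells, had 779 and 692 on FDC and 8.9 and 6 on FL-Y, against 13929 and 14538 on BMDC, and Coro1a, an actin-binding coronin, had 943 and 1012 on FDC and 17 and 57.9 on FL-Y, against 19514 and 28983 on BMDC. The FDC arrays were between the FL-Y and the BMDC arrays for each. The summed signal of the list ranged from 13817 to 16541 on the FDC arrays and from 13169 to 14480 on the FL-Y arrays, where Arhgdib alone gave 13626 and 11702.

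Mast cell transcripts were clear on the FDC arrays. Of 18 measured markers, 8 were called lower in FL-Y by limma, and the summed signal was 17154 and 23273 on the FDC arrays and 909 and 621 on the FL-Y arrays. Cma1, chymase, had 1990 and 4919 on FDC, 57.4 on unactivated FL-Y and 56.6 on activated FL-Y (log2 difference -5.46, SE 0.5, limma adjusted p = 0.0253), and 131 and 20.6 on the BMDC arrays. Cpa3, the mast cell carboxypeptidase, had 1449 and 2968 on FDC, 20 on unactivated FL-Y and 23.8 on activated FL-Y (log2 difference -5.86, SE 0.44, limma adjusted p = 0.0252). Srgn, the granule proteoglycan that other blood cells share, had 6376 and 5266 on FDC, 36.5 on unactivated FL-Y and 21.7 on activated FL-Y (log2 difference -7.09, SE 0.35, limma adjusted p = 0.0139). Fcer1a, of the IgE receptor, had 522 and 2481 on FDC and 24.2 and 2.4 on FL-Y. Kit, the receptor of stem cell factor and another defining marker, had 44.3 and 108 on FDC and 42.3 and 1.3 on FL-Y and was not called.

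T cell and NK cell markers gave 6 calls of 19 measured, all lower in FL-Y. Cd3d, of the T cell receptor complex, had 898 and 489 on FDC, 3.1 on unactivated FL-Y and 2.6 on activated FL-Y (log2 difference -5.31, SE 0.4, limma adjusted p = 0.0252), with 62 and 11.2 on the BMDC arrays. Gzmb, granzyme B, had 1198 and 1709 on FDC, 3.1 on unactivated FL-Y and 14.5 on activated FL-Y (log2 difference -6.02, SE 0.41, limma adjusted p = 0.0252). Cd3g had 491 and 280.2 on FDC and 25.3 and 1.5 on FL-Y. The summed signal of the list was 15515 and 8645 on the FDC arrays and 16247 and 9058 on the FL-Y arrays, of which the stromal marker Thy1 gave most, with 10081 and 4327 on FDC and 15681 and 8762 on FL-Y. Of 16 B and plasma cell markers 10 were tested and 3 were called lower, among them Ighm (1022 and 199.7 on FDC and 3 and 2 on FL-Y), while Cd79a had 77.3 and 27.4 and Blk 25.8 and 48.1 on the FDC arrays. Of 32 macrophage and dendritic cell markers 18 were tested and 6 were called lower, led by Lyz1 (3860.5 and 1150.4 on FDC and 19.2 and 36.8 on FL-Y), whose probe set can share signal with Lyz2. Csf1r and Adgre1, which define macrophages, were low on FDC: Csf1r had 168 and 243, against 40660.2 and 26995 on BMDC, and Adgre1 had 87.7 and 144, against 8197 and 8172 on BMDC. Of 14 granulocyte markers 6 were tested and 1 was called lower, S100a8 (267 and 222 on FDC and 5.7 and 1.2 on FL-Y), and of 17 endothelial markers 4 were tested and 1 was called lower, Flt1 (456 and 865 on FDC and 64.7 and 78 on FL-Y). The summed signal of the granulocyte list was 33550 on FDC array 1, 2707 on FDC array 2 and 504 and 302 on the FL-Y arrays. Tested were 7 of 18 epithelial, 3 of 12 mesothelial, 6 of 16 neural and muscle, and 10 of 17 adipose and skeletal markers. For the adipose and skeletal list the sum was 51703 on FDC array 1, 6717 on FDC array 2 and 11378 and 6570 on the FL-Y arrays. The FDC arrays thus lay far apart for both lists. Limma called 0 of the epithelial, mesothelial, neural and muscle, or adipose and skeletal markers in either direction, and at an unadjusted p under 0.05 it gave 1, 1, 0 and 1 of them, all lower; with so few tested and 4.62% of all tested genes called lower, the 0 says little about these markers.

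**Figure D5:**
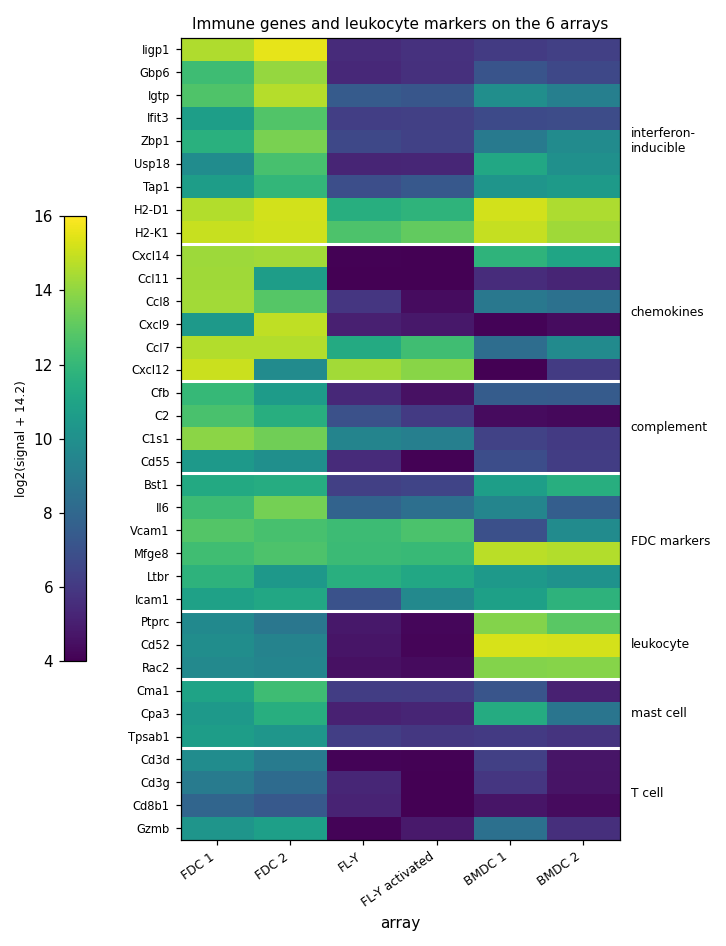
Log2(signal + 14.2) of 35 immune genes on all 6 arrays as colour, from interferon-inducible genes and chemokines at the top to mast cell and T cell markers at the bottom. Interferon-inducible genes other than H2-D1 and H2-K1, Cxcl14 and the leukocyte, mast cell and T cell markers are dark on both FL-Y arrays; Vcam1, Mfge8, Ltbr and Cxcl12 are not. The 3 leukocyte markers are brighter on the BMDC arrays than on the FDC arrays.

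Genes of the sex chromosomes differed as well. Eif2s3y, Uty and Kdm5d lie on the Y chromosome, and Xist silences an X chromosome in female cells. Eif2s3y had 1186 and 382 on FDC, 1.6 on unactivated FL-Y and 1.9 on activated FL-Y (log2 difference -5.43, SE 0.58, limma adjusted p = 0.0275). Uty had 558 and 718 on FDC, 14.3 on unactivated FL-Y and 16.5 on activated FL-Y (log2 difference -4.45, SE 0.32, limma adjusted p = 0.0252). Kdm5d had 187 and 128 on FDC, 27.7 on unactivated FL-Y and 32 on activated FL-Y (log2 difference -1.95, SE 0.34, limma adjusted p = 0.0441). Xist had 90 and 83.4 on FDC, 6.9 on unactivated FL-Y and 20 on activated FL-Y and did not pass (log2 difference -1.91, SE 0.37, limma adjusted p = 0.0508). The Y-linked genes and Xist thus had lower signals on both FL-Y arrays than on both FDC arrays.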

How the data were processed

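Total RNA was labelled with biotin (One-Cycle Target Labeling Kit, per the labels' protocols) and hybridised to Affymetrix mouse arrays of 45101 probe sets, 1 array a sample. The deposited values are linear signal intensities that the authors scaled to a like 2% trimmed mean of 500 on every array, as the values show; the program is not given in the sources used here. Control probe sets (64) were left out of the tests. Of the probe sets, 34945 have 1 gene in the platform annotation, 932 several and 9160 none, and only those with 1 gene were named; 34741 also matched a gene identifier in the RefSeq table (GRCm38.p6).

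Differences were computed on log2(signal + 14.2), where 14.2 is the median over arrays of the 20th percentile. The test was limma 3.58.1 (R 4.3.3, lmFit and eBayes) on FDC against FL-Y, 2 arrays a side, with Benjamini-Hochberg adjustment over the 27022 probe sets whose mean was above the 40th percentile (a signal of 37.12); a call also needed both FL-Y arrays on 1 side of both FDC arrays. An exact permutation test of 2 against 2 cannot go below p = 0.333. Each gene was represented by its brightest probe set on average over the 6 arrays. Some genes named by rule had probe sets of the opposite sign that are not marked above. Those of Mcm3 (1 of 5), Cald1 (1 of 5), Aebp1 (1 of 3) and Ccn1 (1 of 4) were bright enough to test. So were those of Cnn3 (2 of 6) and Pcolce (1 of 2). Those of Chek1 (1 of 5), Kif23 (1 of 3), Rad54l (1 of 4), Ighm (2 of 11) and Xist (1 of 3) were not. None of them was called. In simulated data with 1741 probe sets all changed by 4 on the log2 scale, 93.4% were recovered, with 4.61% of calls false. Smaller changes were not simulated at that number, while the genes called here had a median difference of 2.57 in size. The recovery of such smaller changes is therefore not known from it. With only 200 changed, 0% were recovered at 1, 2 and 4, and 100% of the calls were false. The comparison, gene lists and markers were chosen with earlier results of these data known. Genes were named by rule: the 10 largest calls in each direction, the 10 brightest lost and all gained genes, the 12 brightest kept genes above BMDC, up to 4 calls per list, and fixed genes (such as Cdkn1a, Mdm2, Rb1, Cxcl13, Cr2, Vcam1 and Xist). Other genes named, among them Pcna, Pola1, Ccnd1, Ccnd2, Atm, Tigar, Ldha, Col6a1, Prrx1, Twist1, Hoxc10, Ifit1, Tap1, H2-K1, B2m, Cxcl12, Mfge8, Nfkb2, Birc3, Kit, Thy1 and Csf1r, were chosen after their values were seen. The alternatives were other offsets, scalings, filters, fits, probe sets and cut-offs and leaving out each array.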

Additional observations from a re-analysis of the deposited data

How the results depend on the processing

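The calls of limma (396 higher, 577 lower) moved widely with the processing. With signals floored instead of offset they numbered 0 and 11, with an offset at the 40th percentile 850 and 1002, after quantile normalization 218 and 272, and with every array rescaled to one median 1370 and 526. Without a filter on low values they numbered 0 and 4, and with a filter at the 60th percentile 887 and 876. With the unactivated and activated arrays as separate groups beside BMDC they numbered 19 and 76, of which 18 and 73 were also called in the fit reported, and with BMDC as one more group 587 and 738. Leaving out an FL-Y array gave 0 higher and 1 lower, and leaving out an FDC array gave 721 to 1192 higher and 901 to 1550 lower; the lone array left on a side is assumed to vary like the other group. No paired analysis was possible because no label pairs an FDC array with an FL-Y array. Fewer samples give wider classes by construction: leaving out an FL-Y array gave 261 to 298 genes 4-fold higher, 631 to 767 lower, 227 to 266 lost and 7 to 15 gained, and leaving out an FDC array gave 328 to 511, 792 to 1018, 187 to 197 and 40 to 67. Genes kept above BMDC numbered 104 to 153 without 1 array. The floor gave 832 genes 4-fold lower, 322 lost and 55 gained, and the higher offset 254, 17 and 0. One median gave 422 4-fold higher and 269 lower, and a 2-fold limit 982 and 1684. A background mark at the 30th percentile gave 132 lost and 8 gained genes. A like level within 0.5 on the log2 scale left 1348 genes, 25 of them above BMDC. Apart from construction, the cause of these moves was not tested.

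Of the named genes with a call, 112 of 113 lost it without the activated FL-Y array and as many without the unactivated one. So did 112 of 116 without a filter, 103 of 112 with the floor, 85 of 116 in the fit with 4 groups and 37 of 115 after quantile normalization. None of them reversed under the alternatives run. Named genes with differences near 0 and no call changed sign. With one median these were Aebp1 (0.32), Cald1 (0.33), Ccn1 (0.56), Ccn2 (0.22), Col1a2 (0.2), Col5a2 (0.38), Loxl1 (0.42), Nid1 (0.4), Pcolce (0.4), Pdgfra (0.09) and Vcam1 (0.38). After quantile normalization Col1a2 (0.04) and Col5a2 (0) did so. Leaving out 1 FDC array gave -0.52 to 0 for Aebp1, -0.59 to 0.27 for Loxl1, -0.45 to 0.1 for Pcolce, -1.06 to 0.08 for Pdgfra, -0.23 to 0.19 for Ccn1, -0.08 to 1.03 for Col1a1, -0.39 to 1.01 for Ltbr and -0.37 to 0 for Nid1. Without the activated FL-Y array the values were 0.2 for Ccn1, 0 for Col5a2 and 0.07 for Loxl1. The cause was not tested. The number of arrays limits the precision, and differences of genes near background in 1 cell type depend on the offset.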

Other observations

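Mycn, a relative of Myc active in embryonic cells, had a signal of 44126 on FDC array 1, 12.7 on FDC array 2, 49.7 on the unactivated FL-Y array and 6.2 on the activated one. Its high signal thus stands on 1 array of the 4.

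The FL-Y states lay apart for some genes of the immune lists, which the comparison of the line with FDC does not describe. Cxcl16, a chemokine with a membrane anchor, had 150.1 unactivated and 1382 activated, against 5591 and 8509 on FDC. Ccl2, which draws monocytes, had 2713 and 10562, against 19434 and 34408. Cxcl1, which draws neutrophils, had 988 and 4580.3, against 5564 and 5056. With 1 array a state, these differences have no replicate check.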
